A study of Mus musculus with 2 samples.

Results

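Immunoglobulin RNA was examined in pericardial adipose tissue (PAT), the fat around the heart, of mice without the nucleotide receptor P2Y4. The genes were every variable (V) segment of the heavy, kappa and lambda chains in the authors' table, together with the constant genes and Jchain. They were found by symbol, as Ighv, Igkv or Iglv followed by a number, or as 1 of the constant gene names. This gave 218 of 23609 listed genes, namely 206 V segments (101 heavy, 102 kappa and 3 lambda) and 12 constant genes and Jchain, and Ighe, the constant gene of IgE, is not listed. The tissue came from P2Y4 KO and from wild-type (WT) mice, all of the C57BL/6J strain and 11 to 13 weeks old, with males and females used at random. In all mice the LAD, the coronary artery that feeds the front of the left ventricle, had been tied off for good, and PAT was taken 24 h later. RNA of 3 P2Y4 KO mice was pooled into 1 library and RNA of 3 WT mice into another, with no replicate of either and no mice without ligation. P2ry4, the deleted gene, is not listed, so the genotype labels could not be checked on these values.

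An antibody is built from identical heavy chains and identical light chains, and its light chains are of the kappa or the lambda type. In each developing B cell a heavy chain exon is assembled from 1 V, 1 D and 1 J segment and a light chain exon from 1 V and 1 J segment. The choice of V segment, together with the joints, shapes what the antibody binds. The constant gene sets the isotype: naive B cells use Ighm and Ighd, and class switch recombination later replaces them with a gamma, epsilon or alpha gene. Plasma cells make far more immunoglobulin RNA per cell than resting B cells. Fat around the heart and in other serous cavities holds lymphoid clusters rich in B cells, B-1 cells included, which make natural antibodies from a restricted set of V segments.

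The authors' whole-number values look like reads of each gene brought to a common library total of 20000000. Divided by 20 they are given here as CPM, counts scaled to a fixed library total. The reads behind the values were worked out from the steps between low values, and the listed genes hold 14879283 reads in P2Y4 KO PAT and 15507054 reads in WT PAT. A gene was called higher or lower where its P2Y4 KO/WT ratio was at least 2 or at most 0.5 with more than 0.5 CPM, which is 8 reads, in at least 1 library. With 1 library per genotype no p-value can be given, and every interval is a 95% interval that covers counting error only, not the spread between mice or dissections. In bulk tissue, fewer cells of a type and less RNA per cell cannot be told apart. No gene without a read in WT PAT is in the table, so a V segment read in P2Y4 KO PAT alone was not analysed here. Of 216 functional V genes in the GENCODE M21 annotation of GRCm38, 188 are listed, and the other 18 listed segments are annotated as pseudogenes.

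Reads can pass between V segments that resemble each other, so the sequences of some segments with large differences are shown here, with 1 relative. Each is the V exon, or its first 300 bases where it is longer, on the coding strand, 5′ to 3′, from the GENCODE M21 transcripts of GRCm38, and capitals mark the bases at which it differs from the segment it is compared with. The first pair belong to 1 kappa family and had ratios on opposite sides of 1, and the other 4 segments had ratios of 6.43 or more.
Igkv10-94 (chr6:68704508-68704805, minus strand, against Igkv10-96): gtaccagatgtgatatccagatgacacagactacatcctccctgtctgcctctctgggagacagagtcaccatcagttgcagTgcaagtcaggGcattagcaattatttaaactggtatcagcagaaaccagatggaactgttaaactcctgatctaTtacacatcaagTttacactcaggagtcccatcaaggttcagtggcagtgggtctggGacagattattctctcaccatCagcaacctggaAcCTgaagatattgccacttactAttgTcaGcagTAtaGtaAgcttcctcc
Igkv10-96 (chr6:68631963-68632260, minus strand, against Igkv10-94): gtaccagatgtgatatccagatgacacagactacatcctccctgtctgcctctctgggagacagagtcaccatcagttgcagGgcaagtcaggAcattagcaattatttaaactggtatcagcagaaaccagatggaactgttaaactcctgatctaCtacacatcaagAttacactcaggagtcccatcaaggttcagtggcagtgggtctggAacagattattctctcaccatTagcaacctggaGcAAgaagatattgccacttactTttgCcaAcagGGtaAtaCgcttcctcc
Igkv3-7 (chr6:70607727-70608026, plus strand, against Igkv3-12): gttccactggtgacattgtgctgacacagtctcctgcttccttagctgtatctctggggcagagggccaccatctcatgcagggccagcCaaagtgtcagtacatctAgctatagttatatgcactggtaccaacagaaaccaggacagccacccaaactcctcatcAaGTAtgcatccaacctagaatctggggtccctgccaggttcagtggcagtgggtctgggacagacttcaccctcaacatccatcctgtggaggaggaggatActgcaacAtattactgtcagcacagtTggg
Ighv2-3 (chr12:113611188-113611487, minus strand, against Ighv2-9): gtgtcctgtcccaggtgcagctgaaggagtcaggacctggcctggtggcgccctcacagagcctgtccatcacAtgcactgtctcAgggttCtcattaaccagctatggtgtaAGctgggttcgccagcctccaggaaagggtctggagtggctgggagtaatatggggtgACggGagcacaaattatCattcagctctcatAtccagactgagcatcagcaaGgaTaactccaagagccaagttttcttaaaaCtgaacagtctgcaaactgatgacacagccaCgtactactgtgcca
Ighv6-3 (chr12:114391722-114392021, minus strand, against Ighv6-6): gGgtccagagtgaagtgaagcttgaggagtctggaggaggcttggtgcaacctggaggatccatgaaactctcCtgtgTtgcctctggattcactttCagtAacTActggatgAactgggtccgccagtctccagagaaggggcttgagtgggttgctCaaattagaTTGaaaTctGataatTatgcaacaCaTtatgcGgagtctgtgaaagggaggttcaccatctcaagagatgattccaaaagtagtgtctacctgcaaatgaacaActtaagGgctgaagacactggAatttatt
Igkv2-137 (chr6:67555904-67556203, plus strand, against Igkv2-109): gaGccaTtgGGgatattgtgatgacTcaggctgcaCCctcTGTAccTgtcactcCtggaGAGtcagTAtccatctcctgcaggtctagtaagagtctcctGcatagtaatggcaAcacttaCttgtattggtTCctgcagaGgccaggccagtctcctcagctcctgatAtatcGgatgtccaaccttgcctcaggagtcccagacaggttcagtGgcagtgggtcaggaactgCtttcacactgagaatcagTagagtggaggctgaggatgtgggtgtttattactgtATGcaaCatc
Igkv10-94 and Igkv10-96 differ at 16 of 298 bases, an identity of 94.6%. The remaining listed member of their family, Igkv10-95, lies between them and is closer to Igkv10-94, at 9 differing bases, but had 8 reads in P2Y4 KO PAT and 8 in WT PAT. Over the 188 functional listed segments the median identity to the nearest other segment was 95.1%, and 98 had a relative at 95% or more. How reads that fit several segments were counted is not given in the sources used here, so the value of a single V segment is less certain than the sum over a family or chain.

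Among the constant genes, the IgG2 genes stood apart from all others. Ighg2c (chr12:113285325-113288932, minus strand), the IgG2 isotype of C57BL/6 mice, had 220.7 CPM in P2Y4 KO PAT and 29.25 CPM in WT PAT. Its neighbour Ighg2b (chr12:113302965-113307933, minus strand) had 246.2 CPM in P2Y4 KO PAT, against 80.3 CPM in WT PAT. They were the 2 of 12 constant genes and Jchain called higher, and none was called lower, where 8.75% of the 18474 genes past the filter were higher and 4.4% lower. The remaining gamma genes did not share this. Ighg1, the IgG isotype linked to interleukin-4, had 42.4 CPM in P2Y4 KO PAT and 43.6 CPM in WT PAT, a ratio of 0.972 with an interval of 0.871 to 1.09. Ighg3, the IgG isotype of responses without T cell help, had 8.5 CPM in P2Y4 KO PAT and 8.55 CPM in WT PAT, a ratio of 0.994 (0.773 to 1.28). The coding sequences of Ighg2b and Ighg2c are 87.8% identical, and those of Ighg1 and Ighg2c 79.5%.

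The other isotypes lay within the 2-fold range, though Igha passes it, with a log2 ratio of 1.12, when the median of ribosomal protein genes is set to a ratio of 1. Igha, which encodes the heavy chain of mucosal IgA, had 392.3 CPM in P2Y4 KO PAT and 205.5 CPM in WT PAT, a ratio of 1.91 (1.83 to 1.99). Ighm, the IgM heavy chain, had 1269 CPM in P2Y4 KO PAT, against 1061 CPM in WT PAT, a ratio of 1.2 (1.17 to 1.22). Ighd, which naive B cells express beside Ighm, was at 23.25 CPM in P2Y4 KO PAT and 18.8 CPM in WT PAT (1.24, 1.06 to 1.45). Jchain, the joining peptide that links IgM and IgA into polymers in secreting cells, was at 295.6 CPM in P2Y4 KO PAT and 243.0 CPM in WT PAT (1.22, 1.16 to 1.27). IgM and its joining peptide therefore differed by about the same factor between the libraries, below that of IgA and far below that of IgG2c.

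**Figure D1:**
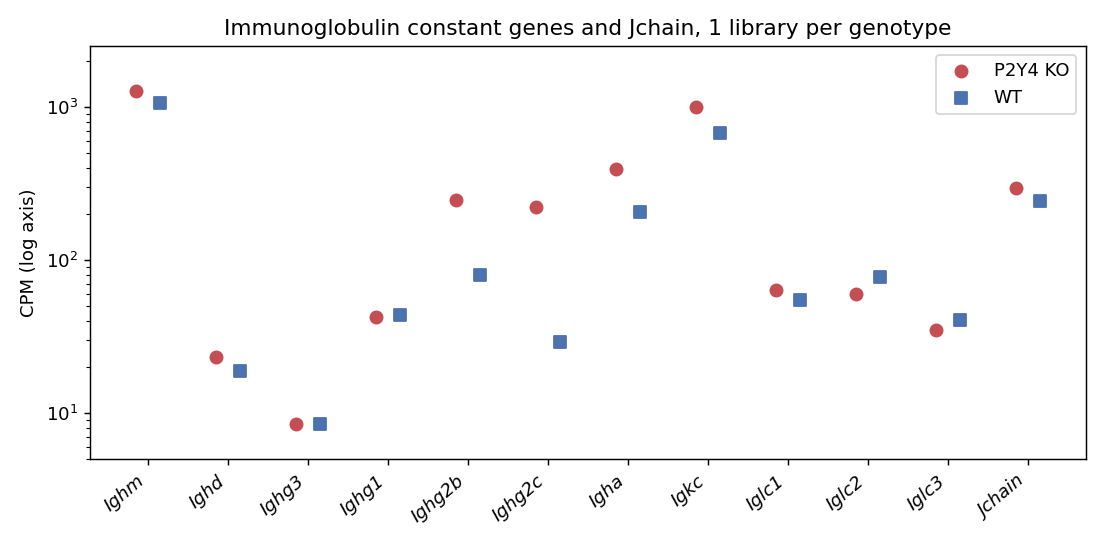
CPM (log axis) of the 11 constant genes and Jchain in P2Y4 KO PAT (red, left of each pair) and WT PAT (blue, right), 1 library per genotype, drawn as points without intervals. Ighg2b and Ighg2c are the genes with a ratio of at least 2, and Iglc2 and Iglc3 lie lower in P2Y4 KO PAT.

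As shares of all heavy chain constant reads, which do not depend on how the libraries were scaled, Ighm took less and the gamma genes more in P2Y4 KO PAT. Ighm held 57.6% of the 32775 reads in P2Y4 KO PAT (57.1% to 58.2%) and 73.3% of the 22433 reads in WT PAT (72.7% to 73.9%). The 4 gamma genes together held 23.5% in P2Y4 KO PAT (23.1% to 24.0%) and 11.2% in WT PAT (10.8% to 11.6%). Igha held 17.8% in P2Y4 KO PAT and 14.2% in WT PAT, and Ighd held 1.06% in P2Y4 KO PAT and 1.30% in WT PAT. Per kilobase of annotated exon the Ighm share was 60.6% in P2Y4 KO PAT, against 78.0% in WT PAT. Among the switched isotypes alone, the direction for Igha turned: it held 43.1% of gamma and alpha reads in P2Y4 KO PAT (42.3% to 43.9%), against 56.0% in WT PAT (54.7% to 57.3%). Within the gamma reads, Ighg2c held 42.6% in P2Y4 KO PAT and 18.1% in WT PAT, and Ighg1 held 8.19% in P2Y4 KO PAT and 27.0% in WT PAT. Ighg2b held 47.5% of gamma reads in P2Y4 KO PAT (46.4% to 48.7%) and 49.7% in WT PAT (47.7% to 51.7%), intervals that overlap.

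Light chains divided by type. Igkc (chr6:70726435-70726966, plus strand), the only kappa constant gene, had 991.5 CPM in P2Y4 KO PAT and 673.8 CPM in WT PAT, a ratio of 1.47 (1.44 to 1.51). The lambda constant genes did not follow it. Iglc1 had 63.45 CPM in P2Y4 KO PAT and 54.95 CPM in WT PAT (1.15, 1.05 to 1.27), whereas Iglc2 had 60.5 CPM in P2Y4 KO PAT, against 77.45 CPM in WT PAT (0.781, 0.715 to 0.852). Iglc3 had 35.15 CPM in P2Y4 KO PAT and 40.6 CPM in WT PAT (0.866, 0.770 to 0.974). Its coding sequence is 96.5% identical to that of Iglc2, so reads of this pair are uncertain. The summed lambda constant genes had a ratio of 0.920 (0.870 to 0.972), which passes to 1.05 when the median of ribosomal protein genes is set to a ratio of 1.

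The same division was present in the V and J segments. Lambda V segments gave 9.68% of light chain V reads in P2Y4 KO PAT (9.21% to 10.2%) and 16.3% in WT PAT (15.5% to 17.1%). For constant genes the lambda share was 13.8% in P2Y4 KO PAT and 20.4% in WT PAT, and for J segments 19.9% in P2Y4 KO PAT and 29.0% in WT PAT. Kappa V reads were 9.33 times the lambda V reads in P2Y4 KO PAT and 5.13 times in WT PAT. Iglv1, which usually joins to the J segments of Iglc1 and Iglc3, had 62.75 CPM in P2Y4 KO PAT and 49.85 CPM in WT PAT, a ratio of 1.26 (1.14 to 1.39). Iglv2, which usually joins to that of Iglc2, had 25.1 CPM in P2Y4 KO PAT and 35.7 CPM in WT PAT, a ratio of 0.703 (0.615 to 0.803). Iglv3 had 7.40 CPM in P2Y4 KO PAT and 4.75 CPM in WT PAT (1.56, 1.16 to 2.14). Iglv1 and Iglv2 are 97.0% identical, yet they lay on opposite sides of 1, as did Iglc1 and Iglc2, and none of the 3 lambda V segments was called.

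Summed over each chain, V segments had a higher ratio than constant genes, with the lambda ratios on either side of 1. Heavy V segments summed to 464.9 CPM in P2Y4 KO PAT and 225.1 CPM in WT PAT, a ratio of 2.07 (2.00 to 2.17) on 6886 reads in P2Y4 KO PAT and 3451 in WT PAT. Kappa V segments summed to 890.3 CPM in P2Y4 KO PAT and 464.9 CPM in WT PAT, a ratio of 1.92 (1.87 to 1.98) on 13216 reads in P2Y4 KO PAT and 7170 in WT PAT. Lambda V segments summed to 95.25 CPM in P2Y4 KO PAT and 90.3 CPM in WT PAT, a ratio of 1.05 (0.979 to 1.14) that falls below 1 when the summed B cell genes are set to a ratio of 1. The constant genes gave 1.52 (1.5 to 1.55) for the heavy chain, 1.47 for kappa and 0.920 (0.870 to 0.972) for lambda. Each of these ratios lay below the interval of the matching V segments. Without the gamma genes the heavy constant ratio was 1.31 (1.29 to 1.34). Heavy J segments gave 1.80 (1.68 to 1.92), kappa J segments 1.55 (1.46 to 1.65) and lambda J segments 0.949 (0.852 to 1.06). Since a spliced antibody transcript carries 1 V exon, 1 J segment and 1 constant region, the unequal ratios are given side by side without weighing them, and the way reads on rearranged V exons were aligned was not tested.

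**Figure D2:**
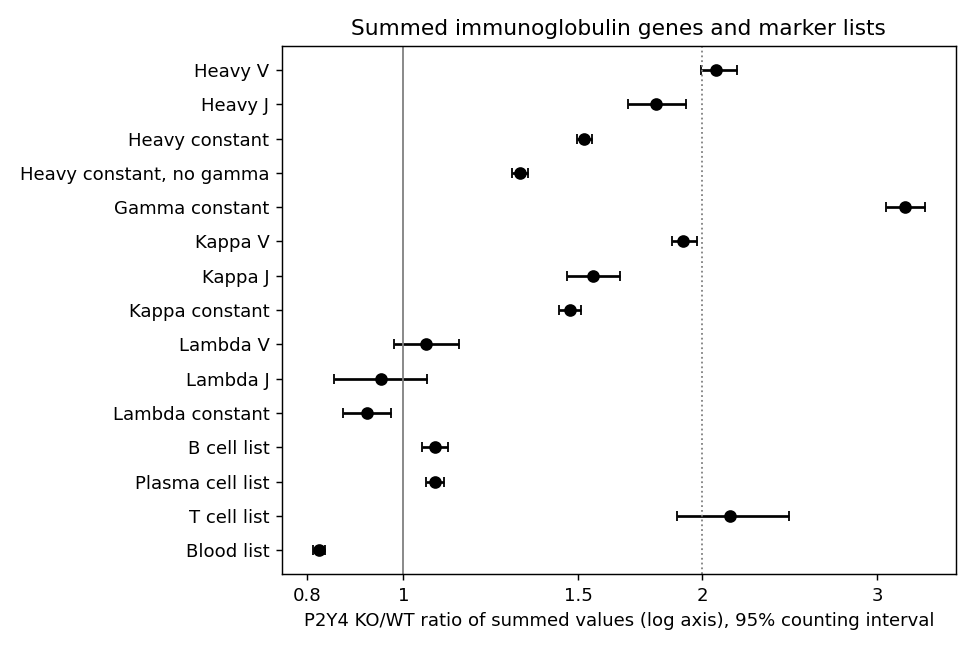
P2Y4 KO/WT ratio (log axis) of summed CPM for V segments, J segments and constant genes of each chain, with exact 95% counting intervals. Heavy and kappa V sums lie at 2.07 and 1.92, their constant genes at 1.52 and 1.47, and all lambda sums lie between 0.920 and 1.05.

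Single J segments, which lie between the V and the constant genes, were uneven too. Ighj1 had 43.7 CPM in P2Y4 KO PAT and 18.85 CPM in WT PAT, a ratio of 2.32, and Ighj2 and Ighj3 had ratios of 2.03 and 2.01. Ighj4, the heavy J segment nearest to Ighm, had 34.1 CPM in P2Y4 KO PAT and 29.35 CPM in WT PAT, a ratio of 1.16. Of the kappa J segments, Igkj4 had a ratio of 2.21 and Igkj1 and Igkj2 had ratios of 1.39 and 1.33.

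Of the 206 V segments, 167 passed the filter, 80 heavy, 84 kappa and 3 lambda. In P2Y4 KO PAT 90 of them were called higher and 13 lower, and 64 had ratios between 0.5 and 2, beside 8.75% higher and 4.4% lower among all genes past the filter. A segment that passed through 1 library alone had to differ, so the count was also taken over segments above 0.5 CPM in both libraries. There, 35 of 65 heavy segments were higher and 3 lower, and 37 of 71 kappa segments were higher and 5 lower, beside 6.2% higher and 2.65% lower among the 17035 genes that passed in both. The median log2 ratio over these segments was 1.10 for heavy and 1.05 for kappa segments, where that of all genes past the filter was 0. With the whole counting interval past the threshold, 55 V segments were higher and 3 lower, beside 3.05% and 1.04% of all genes. The 39 V segments below the filter include all 5 that had 0 reads in P2Y4 KO PAT (Ighv1-21-1, Ighv1-24, Ighv1-79, Igkv1-132 and Igkv5-40-1).

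Higher segments were found along each locus. The 50 heavy V segments nearer to the J segments had a ratio of summed CPM of 2.19 (2.09 to 2.33) and the 51 farther ones 1.90 (1.80 to 2.04), intervals that do not overlap. By single segments past the filter the order turned. Of the nearer heavy segments 19 of 44 were higher, with a median ratio of 1.78, and of the farther ones 24 of 36, with a median ratio of 2.91. Over all heavy V segments past the filter 53.8% were higher, and over all genes 8.75%. Segments that passed through 1 library alone are included, and the split was not repeated over segments above 0.5 CPM in both. For kappa, the 51 nearer segments gave a ratio of sums of 1.98 (1.90 to 2.08) and the 51 farther ones 1.87 (1.81 to 1.95), which overlap. Without the 5 most abundant segments of each library, the ratios were 2.13 for heavy and 1.92 for kappa V segments.

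**Figure D3:**
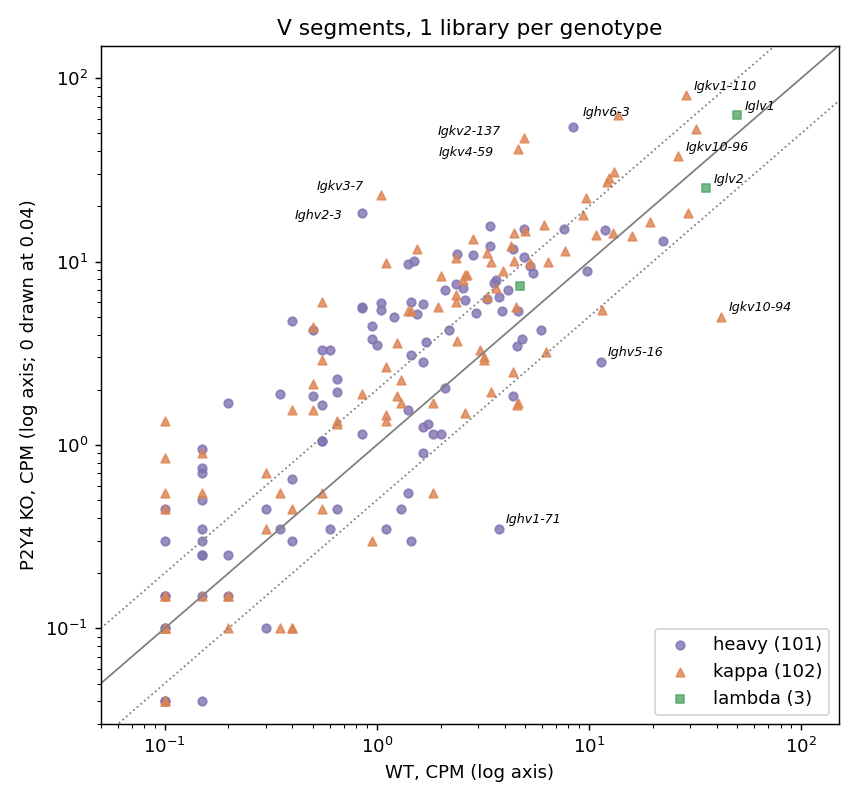
CPM of each of the 206 V segments in P2Y4 KO PAT (vertical, log axis) against WT PAT (horizontal, log axis), by chain, 1 library per genotype; the solid line is equality, dotted lines are 2-fold, and 0 is drawn at the bottom. Most heavy and kappa segments with more than 1 CPM lie above equality, and Igkv10-94 and Ighv1-71 lie far below it.

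The 5 V segments whose ratio intervals began highest were 4 kappa segments and 1 heavy segment. Igkv3-7 had 22.95 CPM in P2Y4 KO PAT and 1.05 CPM in WT PAT, a ratio of 21.9 (13.5 to 39.3) on 341 reads in P2Y4 KO PAT and 16 in WT PAT. Ighv2-3 had 18.35 CPM in P2Y4 KO PAT and 0.85 CPM in WT PAT, a ratio of 21.6 (12.6 to 41.6). Their nearest relatives in sequence differed less: Igkv3-12, 96.8% identical to Igkv3-7, had a ratio of 2.81 (2.13 to 3.83), and Ighv2-9 had a ratio of 1.38 (0.982 to 1.97). Igkv2-137 had 47.05 CPM in P2Y4 KO PAT and 4.95 CPM in WT PAT, a ratio of 9.51 (7.57 to 12.3). Igkv4-59 had 41 CPM in P2Y4 KO PAT and 4.65 CPM in WT PAT, a ratio of 8.82 (6.91 to 11.4). Its nearest relative Igkv4-70, 97.3% identical, had a similar ratio of 8.95 (5.40 to 15.8) at 9.85 CPM in P2Y4 KO PAT and 1.10 CPM in WT PAT. Igkv13-84 had 6.05 CPM in P2Y4 KO PAT and 0.55 CPM in WT PAT, a ratio of 11 (5.70 to 28.0) that rests on 8 reads in WT PAT.

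The segments with the lowest upper bound were 3 heavy and 2 kappa segments, of which Igkv10-94 carried by far the most reads. Igkv10-94 had 5 CPM in P2Y4 KO PAT and 41.95 CPM in WT PAT, a ratio of 0.119 (0.0920 to 0.151) on 74 reads in P2Y4 KO PAT and 650 in WT PAT. It was the kappa segment with most reads in WT PAT. Igkv10-96 of the same family had 37.65 CPM in P2Y4 KO PAT and 26.35 CPM in WT PAT, a ratio of 1.43 (1.26 to 1.63). Ighv5-16 had 2.85 CPM in P2Y4 KO PAT and 11.35 CPM in WT PAT, a ratio of 0.251 (0.173 to 0.350). Ighv1-71 had 0.35 CPM in P2Y4 KO PAT and 3.75 CPM in WT PAT (0.0933, 0.0281 to 0.222), and its V exon is 100% identical to that of Ighv1-62-2, so its reads are uncertain. Igkv8-16 had 1.65 CPM in P2Y4 KO PAT and 4.60 CPM in WT PAT (0.359, 0.212 to 0.566), and Ighv1-47 had 0.30 CPM in P2Y4 KO PAT and 1.45 CPM in WT PAT (0.207, 0.0475 to 0.558).

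The heavy segments with most reads over both libraries did not share 1 direction. Ighv6-3, which led in P2Y4 KO PAT with 11.7% of heavy V reads, had 54.35 CPM there and 8.45 CPM in WT PAT, a ratio of 6.43 (5.34 to 7.80). Ighv1-26, which led in WT PAT with 9.997% of heavy V reads, had 12.9 CPM in P2Y4 KO PAT and 22.25 CPM in WT PAT, a ratio of 0.580 (0.483 to 0.694). Ighv1-53 had 15 CPM in P2Y4 KO PAT and 7.65 CPM in WT PAT, a ratio with an interval of 1.57 to 2.48. Ighv7-3 had 14.8 CPM in P2Y4 KO PAT and 11.9 CPM in WT PAT (1.24, 1.02 to 1.52). Ighv1-18, 97.4% identical to Ighv1-26 and picked after its values were seen, lay on the other side of 1, with a ratio of 3.33 (2.26 to 5.20).

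The 5 kappa segments with most reads over both libraries all had ratios above 1. Igkv1-110, with most kappa V reads in P2Y4 KO PAT (9.13%), had 81.05 CPM there and 28.65 CPM in WT PAT, a ratio of 2.83 (2.54 to 3.16). Igkv14-111 had 62.85 CPM in P2Y4 KO PAT and 13.75 CPM in WT PAT (4.57, 3.94 to 5.33), and Igkv1-117 had 53.15 CPM in P2Y4 KO PAT and 31.9 CPM in WT PAT (1.67, 1.49 to 1.87). Igkv4-55 and Igkv4-68, 95.4% identical and picked after their values were seen, had ratios of 0.472 and 3.17.

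Segments known from natural antibodies of mouse B-1 cells were looked at after the values were known. Antibodies to phosphatidylcholine typically pair Ighv12-3 with Igkv4-91, or Ighv11-2 with Igkv14-126. Ighv12-3 had 15 CPM in P2Y4 KO PAT and 4.95 CPM in WT PAT (3.03, 2.35 to 4.02), and Igkv4-91 had 31.0 CPM in P2Y4 KO PAT and 13.1 CPM in WT PAT (2.37, 2.00 to 2.80). Ighv11-2 had 8.90 CPM in P2Y4 KO PAT and 9.75 CPM in WT PAT (0.913, 0.716 to 1.16), and Igkv14-126 had 18.5 CPM in P2Y4 KO PAT and 29.15 CPM in WT PAT (0.635, 0.544 to 0.738). The members of the first pair were thus both higher and those of the second were not. Of all V segments past the filter, 53.9% were higher, so 2 higher members are not unusual among them. Gene counts do not show which chains were paired in a cell. Ighv7-1, the heavy segment of classical antibodies to phosphorylcholine, had 1.85 CPM in P2Y4 KO PAT and 4.40 CPM in WT PAT (0.420, 0.255 to 0.655). The kappa segment of those antibodies is not given here.

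By family, the shares of reads within a chain differed beyond counting error, with no overlap of the intervals, in 10 of 14 heavy and 11 of 19 kappa families. Of all genes past the filter, 36.5% had shares of the library's reads whose intervals did not overlap. That figure is for single genes within a whole library and the families are groups within a chain, so the comparison is a loose one. Shares within a chain are also tied, so a larger share of any family lowers those of others. Ighv1, the largest heavy family with 55 listed segments, held 42.7% of heavy V reads in P2Y4 KO PAT (41.5% to 43.9%) and 44.4% in WT PAT (42.7% to 46.0%), which overlap. Ighv6 held 14.1% in P2Y4 KO PAT and 5.07% in WT PAT, and Ighv6-3 gave 83.4% of its reads in P2Y4 KO PAT. Ighv2 held 9.58% in P2Y4 KO PAT and 4.96% in WT PAT, and Ighv3 held 4.81% in P2Y4 KO PAT and 1.83% in WT PAT. Other families held less in P2Y4 KO PAT. Ighv5 held 7.33% in P2Y4 KO PAT and 12.8% in WT PAT, and Ighv7 held 3.70% in P2Y4 KO PAT and 7.36% in WT PAT. Ighv14 held 3.11% in P2Y4 KO PAT and 7.04% in WT PAT, and Ighv11 held 2.05% in P2Y4 KO PAT and 4.55% in WT PAT. Only Ighv11 and Ighv14 of the 14 heavy families had a ratio of summed CPM below 1, at 0.941 and 0.917, with intervals that include 1, and both pass 1 when ribosomal protein genes set the scale.

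In the kappa chain, Igkv10 differed most in share. It held 4.86% of kappa V reads in P2Y4 KO PAT (4.50% to 5.24%) and 14.9% in WT PAT (14.1% to 15.7%), with a ratio of summed CPM of 0.627 (0.568 to 0.693), and Igkv10-94 gave 61.0% of its reads in WT PAT. Igkv2 held 6.86% in P2Y4 KO PAT and 2.27% in WT PAT, with 77.3% of its reads from Igkv2-137 in P2Y4 KO PAT. Igkv1 held 19.2% in P2Y4 KO PAT and 16.6% in WT PAT, and Igkv4, the largest family with 31 listed segments, 17.7% in P2Y4 KO PAT and 15.4% in WT PAT. Igkv17 held 2.44% in P2Y4 KO PAT and 1.17% in WT PAT.

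**Figure D4:**
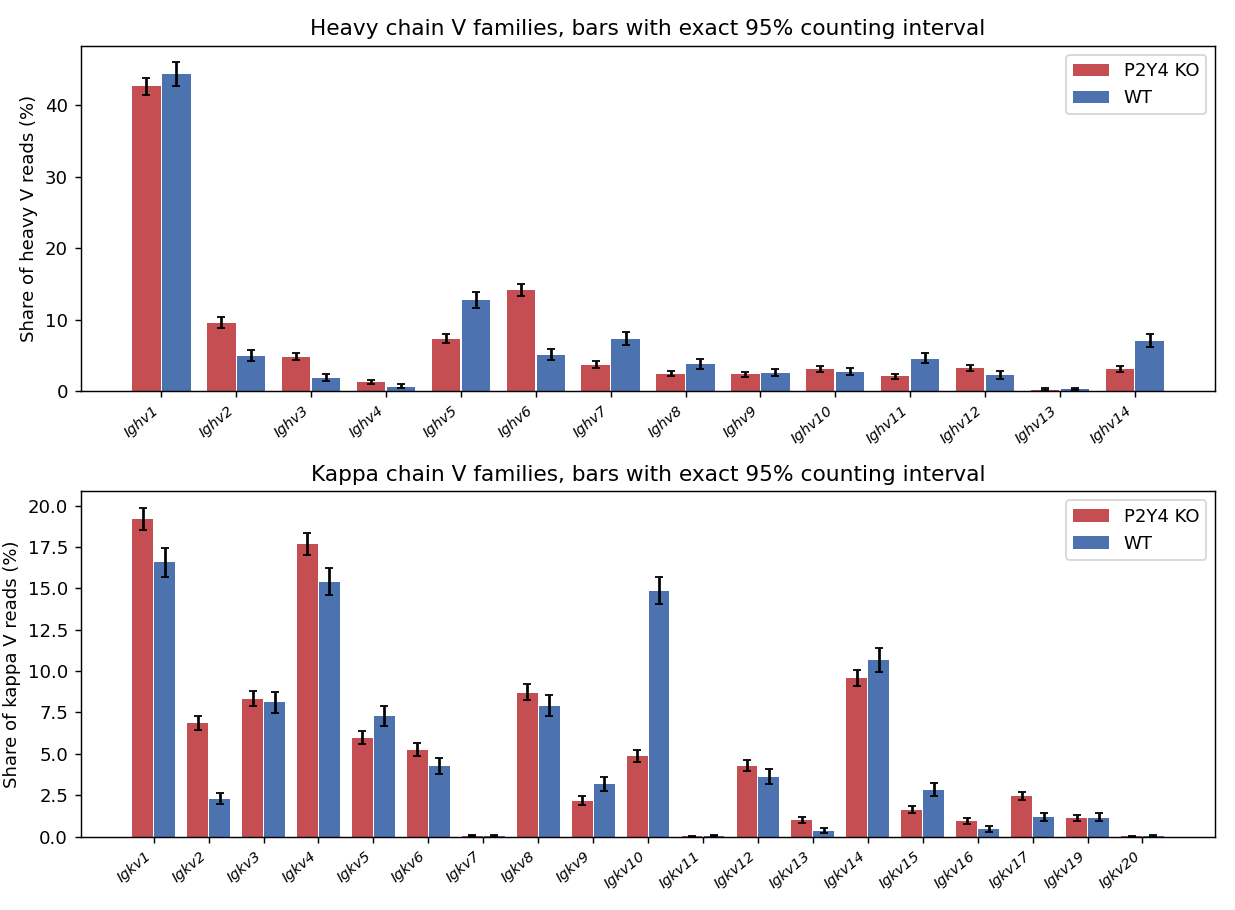
Share (percent) of the V reads of its chain held by each heavy and kappa family in P2Y4 KO PAT (red, left of each pair) and WT PAT (blue, right), with exact 95% counting intervals. Ighv6 (14.1% in P2Y4 KO PAT and 5.07% in WT PAT) and Igkv10 (4.86% in P2Y4 KO PAT and 14.9% in WT PAT) are the pairs set farthest apart.

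The effective number of heavy V segments, the inverse of the chance that 2 reads come from the same segment, was 33.2 in P2Y4 KO PAT (31.6 to 35.1) and 34.2 in WT PAT (32.2 to 36.5). For kappa it was 29.7 in P2Y4 KO PAT (28.9 to 30.6) and 28.1 in WT PAT (27.1 to 29.2), and the intervals overlapped in both chains. The 5 most abundant segments of each library held 25.5% of heavy V reads in P2Y4 KO PAT (24.5% to 26.6%) and 28.6% in WT PAT (27.1% to 30.1%). In kappa they held 32.1% in P2Y4 KO PAT (31.3% to 32.9%) and 34.1% in WT PAT (33.04% to 35.3%), and neither pair of intervals overlapped. They were in part other segments, since 5 of the 10 most abundant heavy segments and 5 of the 10 most abundant kappa segments were shared between the libraries. Across segments above 0.5 CPM in both, the correlation of log2 CPM between the libraries was 0.52 for 65 heavy and 0.66 for 71 kappa segments, a description only, since the segments of a library share its 3 mice.

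Genes that mark B cells and plasma cells differed less than the V segments. Of 18 listed B cell genes, 3 were higher and none lower, beside 8.75% and 4.4% of all genes past the filter, and their summed level was 572.3 CPM in P2Y4 KO PAT and 531.8 CPM in WT PAT, a ratio of 1.08. The 3 higher genes were receptors of B cells: Cr2, which binds complement fragments, had a ratio of 4.29, Fcer2a, the low-affinity IgE receptor, 4.24, and Fcmr, the IgM receptor, 2.21. None of 12 plasma cell genes was called, and their sum was 1136 CPM in P2Y4 KO PAT and 1056 CPM in WT PAT. That sum was led by Xbp1 (378.3 CPM in P2Y4 KO PAT, 352.8 CPM in WT PAT) and Txndc5 (355.6 CPM in P2Y4 KO PAT, 366.0 CPM in WT PAT). By single genes, 10 of the 12 ratios were above 1 and 2 below. Prdm1 was at 1.48 (1.10 to 2.00) and Derl3 at 1.32 (1.04 to 1.67). Mzb1, a chaperone of antibody secretion, had 32.25 CPM in P2Y4 KO PAT and 26.8 CPM in WT PAT, a ratio of 1.2, and Tnfrsf17, a survival receptor of plasma cells, was at 8 reads in P2Y4 KO PAT and 4 in WT PAT. The part of B cell number or plasma cell number in the V segment ratios was not tested.

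Genes of rearrangement and switching had a summed ratio of 1.11. Of 13 recombination and switching genes, only the exonuclease gene Exo1 was called, a share near the 8.75% of all genes called higher, with 6.6 CPM in P2Y4 KO PAT and 2.75 CPM in WT PAT, a ratio of 2.40. Of 5 germinal centre genes past the filter, Gcsam, which signals in germinal centre B cells, was higher with a ratio of 3.03. Rag1 and Rag2, which cut V, D and J segments, are not listed, so reads of them in P2Y4 KO PAT alone could not be seen. Of 10 cytokine genes that act on B cells and plasma cells and passed the filter, 3 were higher and none lower, beside 8.75% and 4.4% of all genes. Cxcl12, which retains plasma cells in marrow, had 281.4 CPM in P2Y4 KO PAT and 92.3 CPM in WT PAT, a ratio of 3.05. Il4 was at 22 reads in P2Y4 KO PAT and 11 in WT PAT, a ratio of 2 (0.968 to 4.76). Ifng, which drives switching to IgG2c, was at 8 reads in P2Y4 KO PAT and 1 in WT PAT. Its ratio was 5.50, with an interval of 1.12 to 370. Of these 3 cytokine genes, only Cxcl12 had its whole counting interval past the threshold. Cxcl13, which draws B cells into lymphoid clusters, had 751.2 CPM in P2Y4 KO PAT and 658.1 CPM in WT PAT.

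Of 11 receptors of antibodies past the filter, 3 were higher and none lower, beside 8.75% and 4.4% of all genes past the filter. They were Fcer2a, Fcmr and Ms4a2, the beta chain of the mast cell IgE receptor. Ms4a2 had a ratio of 4.14 (1.61 to 14.9) on 21 reads in P2Y4 KO PAT and 5 in WT PAT. With more than 0.5 CPM in both libraries, 2 were higher. Fcgrt, the receptor that protects IgG from breakdown, had 151.8 CPM in P2Y4 KO PAT and 76.75 CPM in WT PAT, a ratio of 1.98. The receptors for IgG on leukocytes lay on either side of 1 and within the 2-fold range. Fcgr1 and Fcgr4 had ratios of 1.17 (1.11 to 1.23) and 1.16 (1.08 to 1.24), with Fcgr2b at 383.8 CPM in P2Y4 KO PAT and 412.1 CPM in WT PAT, and Fcgr3 at 401.6 CPM in P2Y4 KO PAT and 420.0 CPM in WT PAT.

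Markers of other cells in the dissected tissue differed between the libraries too. Their counts stand beside 8.75% higher and 4.4% lower among all genes past the filter. All 8 cardiomyocyte genes were higher, with sums of 405.2 CPM in P2Y4 KO PAT and 4.70 CPM in WT PAT, and 5 of 6 adipocyte genes were higher, with sums of 3010 CPM in P2Y4 KO PAT and 1662 CPM in WT PAT. Of 8 T cell genes 5 were higher, with sums of 48.2 CPM in P2Y4 KO PAT and 22.6 CPM in WT PAT. None of 7 blood genes was called, with sums of 2115 CPM in P2Y4 KO PAT and 2572 CPM in WT PAT, nor any of 4 genes of all leukocytes, whose summed ratio was 1.10. Of the lymph node genes, Ccl19, a chemokine of T cell zones, had 5.55 CPM in P2Y4 KO PAT and 0.60 CPM in WT PAT, while the venule genes Chst4 and Madcam1 had ratios of 0.598 (0.420 to 0.845) and 0.636 (0.168 to 2.26) and Glycam1 was at 1 read in each library. The median ratio of the 4 lymph node genes past the filter was 0.852. For thymus, Ptcra, Arpp21, Foxn1 and Psmb11 are not listed, so reads of them in P2Y4 KO PAT alone could not be seen. None of the 3 listed thymocyte genes past the filter was called, with ratios of 1.91 (Cd8b1), 1.93 (Themis) and 0.829 (Satb1). Of the thymic epithelium genes, Prss16 had 17 reads in P2Y4 KO PAT and 10 in WT PAT. Ccl25 had 81 reads in P2Y4 KO PAT and 78 in WT PAT. The part of these tissues in the immunoglobulin ratios was not tested.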

How the data were processed

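Per the paper and the submitters' processing notes, the authors trimmed reads of stranded mRNA libraries with Trimmomatic, aligned them with STAR to GRCm38.p4 and counted genes of Ensembl release 87 with HTSeq. Tool versions and the treatment of ambiguous reads were not given in the sources used here. By its values, the signal that the authors deposited looks like reads brought to 20000000 per library and rounded up. The deposited ratio and list of regulated genes were not used.

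Reads were recovered from the steps between values (99.8% of values in P2Y4 KO PAT and 99.9% in WT PAT came out as whole reads, rounded up, with no tolerance) and served for read numbers, shares and intervals: exact conditional Clopper-Pearson intervals for ratios, binomial for shares, and a multinomial approximation for the effective number. The design had foreseen counts or CPM, and since the values are scaled and rounded, no count model was fitted. The steps were tested on simulated data. Python 3.11.15, pandas 2.3.3, scipy 1.17.1 and Biopython 1.88 were used.

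Members were matched to GENCODE M21 by gene ID (218 of 218). V exons were compared by global alignment with a gap opening score of -3. Members, 15 gene lists and naming rules were chosen with earlier results of these data known. Named V segments are, for each chain, the 5 with most reads over both libraries, and over all chains the 5 with the highest lower and the 5 with the lowest upper interval bound. Nearest relatives in sequence and segments noted as such were picked after values were seen. Promoters and proteins of V segments were not used here. Alternatives were other filters, scalings, denominators and summaries. Some list members are not reported here.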

Additional observations from a re-analysis of the deposited data

How the results depend on the processing

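No paired analysis was possible because each genotype has 1 library, and for the same reason no replicate could be left out. Of the alternative values of the main results, 83 stayed within the counting interval of the value as reported (counts, within 1.5 times), 27 moved beyond it and 1 changed sign. Besides, 3 ratios of sums near 1 passed to its other side, all of them lambda. The change of sign was that of Igha, whose share difference, P2Y4 KO minus WT, was 3.61 percentage points of all heavy constant reads and -12.9 points without Ighm and Ighd. The 90 higher V segments became 55 with the whole interval past the threshold, and the 13 lower ones became 8 with more than 0.5 CPM in both libraries, 23 with no filter and 3 with the whole interval. Setting the median of 81 ribosomal protein genes to a ratio of 1 raised every log2 ratio by 0.19, to ratios of 2.36 (heavy V), 2.18 (kappa V), 1.203 (lambda V), 1.74 (heavy constant), 1.68 (kappa constant) and 1.05 (lambda constant), and gave 3 constant genes (Igha added), 1 plasma cell and 5 antibody receptor genes called higher. Setting the summed B cell list to 1, chosen after seeing the data, gave 1.92, 1.78, 0.980, 1.41, 1.37 and 0.855 for heavy V, kappa V, lambda V, heavy constant, kappa constant and lambda constant. Median-of-ratios scaling gave 1.49 for the heavy constant genes. Without the most abundant segment of each library the ratio was 2.04 for kappa V and 0.803 for lambda V, and the lambda share difference was -5.45 percentage points in place of -6.64. Per kilobase, share differences were -17.4 points for Ighm, 15.04 for gamma, 11.9 for Ighg2c and 2.57 for Igha, and without Ighm and Ighd that of Ighg2c was 16.3. The kappa effective number was higher in P2Y4 KO PAT (ratio 1.06) and the share of the 5 most abundant segments lower (ratio 0.940). Both mean less concentration. For heavy segments the ratios were 0.972 and 0.893, which point opposite ways. The tally above held each share ratio against the interval of the effective number, although the 2 measures run inversely, so its labels for these shares say little. Of the alternative values of single named genes, 184 stayed within the counting interval and 20 moved, and the uncalled Ighg1 (log2 ratio 0.15) and Ighg3 (0.18) passed to above 0 with the ribosomal scaling, Ighg3 also (0.0026) without the 100 most abundant genes. Segments with few reads in WT PAT (Ighv2-3, Igkv13-84) are limited by depth, and pooling of 3 mice leaves the spread between mice unknown.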
